A study of Mus musculus with 24 samples.

Results

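Replication-dependent histone genes make the histone proteins that package new DNA. The set described here holds the protein-coding genes whose GENCODE mouse symbol belongs to the clustered histone families (Hist1h to Hist4h, or the newer H1f, H2ac, H2bc, H3c and H4c names) and that had a mean of at least 10 counts per mouse. These were 50 genes of 71 with a matching symbol, out of 55385 genes counted. They comprised 6 linker histone H1 genes, 8 H2A, 14 H2B, 10 H3 and 12 H4 genes. The choice used neither a group nor a fold change.

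Hippocampal RNA of 24 mice was sequenced, 4 mice in each of 6 groups. Tsc1-Cre- mice, the controls, carried floxed Tsc1 without Cre, so tamoxifen deleted no gene in them, and their hippocampi were taken on day 8. Tsc1-Cre+ mice carried floxed Tsc1 and Tg(Camk2a-CreERT2), a transgene in which the Camk2a promoter drives a tamoxifen-dependent Cre, and were taken on day 4, 6, 8 or 13. Tsc1-Cre+-Rap 4 mice had the same genotype, received 10 mg/kg rapamycin by daily injection from day 4, and were taken on day 13. All groups, controls included, received tamoxifen on 4 days, days were counted from its first injection, and the mice were 16 to 22 weeks old and of both sexes. Tsc1 was removed only in neurons that express CAMK2A, while the RNA came from all cells of the hippocampus. No group received rapamycin without the deletion.

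Most messenger RNAs end in a poly(A) tail. The transcripts of replication-dependent histone genes instead end just after a short stem-loop, which is bound by SLBP, the stem-loop binding protein, and is cut with the help of the U7 small nuclear RNA. These transcripts rise in S phase, when DNA is copied, and are degraded when it ends. Neurons do not divide, but the adult hippocampus holds dividing cells, such as precursors in the dentate gyrus and glial precursors. Some genes of the clusters also give polyadenylated transcripts, which are seen in cells that have stopped dividing. The libraries were made from rRNA-depleted total RNA, so histone transcripts with and without poly(A) could be read.

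The stem-loop is the feature that defines the family, so it was looked for in the annotated transcripts of each gene. The pattern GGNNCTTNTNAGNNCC, 16 bases long and read on the sense strand, was in the transcript of 38 of the 50 genes (76%) and of 164 of 21951 protein-coding genes in all (0.747%). The 38 genes held 8 different forms of it. One form was shared by 20 genes of the H1, H2A, H2B and H3 classes, and forms with a different stem were held by H4 genes alone. One gene of each form is given here with 5 bases on each side, and the capitals mark the 16 bases of the stem-loop (GENCODE M21 transcripts, genome build GRCm38).
Hist1h3a: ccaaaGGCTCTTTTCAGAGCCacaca
Hist1h3c: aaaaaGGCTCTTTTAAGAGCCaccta
Hist2h2ac: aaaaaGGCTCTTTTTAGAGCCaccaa
Hist1h3g: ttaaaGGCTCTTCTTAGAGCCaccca
Hist1h4h: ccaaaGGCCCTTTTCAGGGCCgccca
Hist1h4i: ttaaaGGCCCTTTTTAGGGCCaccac
Hist1h4b: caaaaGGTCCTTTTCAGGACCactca
Hist1h4a: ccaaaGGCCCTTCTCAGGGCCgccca

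The loops of Hist1h3a (chr13:23761890-23761905), Hist1h3c (chr13:23745047-23745062), Hist1h4i (chr13:22040966-22040981) and Hist1h4a (chr13:23760800-23760815) lie on the minus strand, as does that of Hist2h2ac (chr3:96220418-96220433). Those of Hist1h3g (chr13:23535889-23535904), Hist1h4h (chr13:23531458-23531473) and Hist1h4b (chr13:23757366-23757381) lie on the plus strand. The first form, that of Hist1h3a, was held by 20 genes, the form of Hist1h4h by 6 and that of Hist1h3c by 5. The forms of Hist1h4i and Hist1h4b were each held by 2 genes, and the other 3 forms by 1 gene each.

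The genes fell into 4 groups by this annotated end, which was not used to choose them. In 17 genes the annotated transcript stopped 11 to 74 bases after the loop (short tail), as in Hist1h3a, Hist1h3b and Hist1h2bj. In 21 genes at least one annotated transcript ran on for 108 to 4884 bases (long tail), as in Hist1h2bh, Hist1h1c and Hist1h4d. In 6 genes the annotation held the coding sequence alone, so no loop could be looked for (Hist1h2ak, Hist1h2bl, Hist1h2bn, Hist1h3h, Hist1h3i and Hist1h4k). In the other 6 no match was found: Hist1h1a, Hist1h1b, Hist2h2ab, Hist1h2bc, Hist2h2be and H1f0. H1f0 codes for H1.0, a linker histone known from non-dividing and differentiated cells, so it meets the rule by its symbol without being a typical replication-dependent gene. It lies apart from the others, alone on chromosome 15 (79028450 to 79030504).

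Of the rest, 41 genes lay on chromosome 13 between 21715763 and 23764406, the largest histone cluster of the mouse. Another 5 lay on chromosome 3 (96219865 to 96263311), 2 on chromosome 11 (58948920 to 58956830) and 1 on chromosome 6 (136801553 to 136804415). Promoters of 45 genes could be taken from RefSeq on the same build. In the 250 bases before the start, on either strand, the TATA box letters TATAAA were in 25 of the 45 (55.6%) against 12.4% of 32851 promoters, and the CCAAT box in 35 (77.8%) against 33.8%. The CCAAT box was in 8 of 8 H2A and 12 of 12 H2B promoters but in 3 of 11 H4 promoters. The octamer ATTTGCAT, the site known to be bound by OCT1 (Pou2f1) in H2B genes, was in 5 of 8 H2A and 5 of 12 H2B promoters, in no H1, H3 or H4 promoter, and in 1.6% of all promoters. The windows of neighbouring H2A and H2B genes on opposite strands can overlap, so the same site can be counted for both. That of Hist1h2ae, for example, covers the octamer of Hist1h2bg. In the last 120 bases before the start, Hist3h2a was the only H2A gene with the octamer. The last 120 bases before the start are shown for 3 genes that differ in these motifs, with the motifs in capitals: an H2B gene with all 3, an H3 gene with CCAAT and TATAAA, and the H4 gene with the highest level per length, with none.
Hist1h2bb: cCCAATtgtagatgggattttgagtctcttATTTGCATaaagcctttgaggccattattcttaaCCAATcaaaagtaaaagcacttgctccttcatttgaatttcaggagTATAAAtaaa
Hist1h3b: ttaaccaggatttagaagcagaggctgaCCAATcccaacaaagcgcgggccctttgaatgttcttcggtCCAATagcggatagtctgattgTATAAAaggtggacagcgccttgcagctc
Hist1h4h: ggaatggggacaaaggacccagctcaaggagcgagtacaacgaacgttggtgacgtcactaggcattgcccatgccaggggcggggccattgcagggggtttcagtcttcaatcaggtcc

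These stretches lie on the plus strand of GRCm38 at chr13:23746614-23746733 (Hist1h2bb), chr13:23752225-23752344 (Hist1h3b) and chr13:23530924-23531043 (Hist1h4h). A match of letters describes the sequence and does not show that a factor was bound.

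The libraries held 28208561 to 126435936 counts (median 55582027 per mouse), of which the 50 histone genes held between 0.0315% and 0.0508%. The largest library was that of day 13 mouse B, so the mean raw count used to choose the genes gave this mouse the most weight. Levels are given in CPM, counts scaled by the TMM-normalized size of each library. Tsc1, the deleted gene, was lower than in controls in each Tsc1-Cre+ group, by 0.42 to 0.75 on the log2 scale (edgeR adjusted p at most 0.000636), and did not differ between rapamycin-treated and untreated day 13 mice past the threshold (log2 fold change 0.09, edgeR adjusted p = 0.437). The animal numbers put the control and the day 8 mice in a common pair of series, with letters A and B in one and C and D in the other. The other groups came from other series, so there the time point and the series cannot be told apart.

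The histone genes have nearly identical copies. Of the 76-base windows in the exons of a gene, a median of 34.8% also occurred in another gene, and in 15 genes the share was over 50%. The counts of such genes depend on how reads with several matches were treated, which is not given in the sources used here. In 4 genes, among them Hist1h1e and Hist1h2be, the annotation overlaps another gene on the same strand, and in 10 a gene on the opposite strand. Among the 18 protein-coding histone genes below the minimum, the median share was 90.4% and 6 genes had 0 counts in all mice. The members nearest the minimum were Hist1h2ad with a mean of 10 counts, Hist1h2bp with 12.8 and Hist1h2ab with 16.5, and the genes nearest below it were Hist1h2ai with 8.29, Hist1h1t with 5.67 and Hist1h2af with 2.58.

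Per length of exon, the histone transcripts of control hippocampus were led by H4 genes and H1f0. Hist1h4h was highest, at 39.1 ± 10.0 CPM per kb (SD, n = 4), followed by Hist1h4d at 35.9 ± 4.72 and Hist1h4c at 33.1 ± 5.03 CPM per kb. The control ranges of these 3 genes overlapped, from 26.1 to 48.8, 29.0 to 39.6 and 28.2 to 38.3 CPM per kb. H1f0 followed at 29.0 ± 2.37 CPM per kb, then Hist1h4f at 21.5 ± 2.08, Hist1h4k at 17.6 ± 3.97 and Hist1h2bc, the highest H2B gene, at 16.8 ± 1.19 CPM per kb. The H1 genes Hist1h1c and Hist1h1e reached 14.7 ± 1.86 and 13.5 ± 0.844 CPM per kb, and Hist3h2ba, a variant H2B gene of chromosome 11, 12.7 ± 1.63 CPM per kb. Hist4h4 had 7.96 ± 1.37 CPM per kb. The highest H3 gene, Hist1h3e, had 7.05 ± 1.59 CPM per kb, and Hist1h4n had 7.05 ± 1.51. Without Hist4h4, these were the 12 highest genes over all 24 mice, and no H2A gene was among them. This order depends on the annotated exon length, which differs in how far it runs past the loop. The H2A gene Hist3h2a, for example, has 2146 annotated bases, of which 1643 follow its loop.

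**Figure D1:**
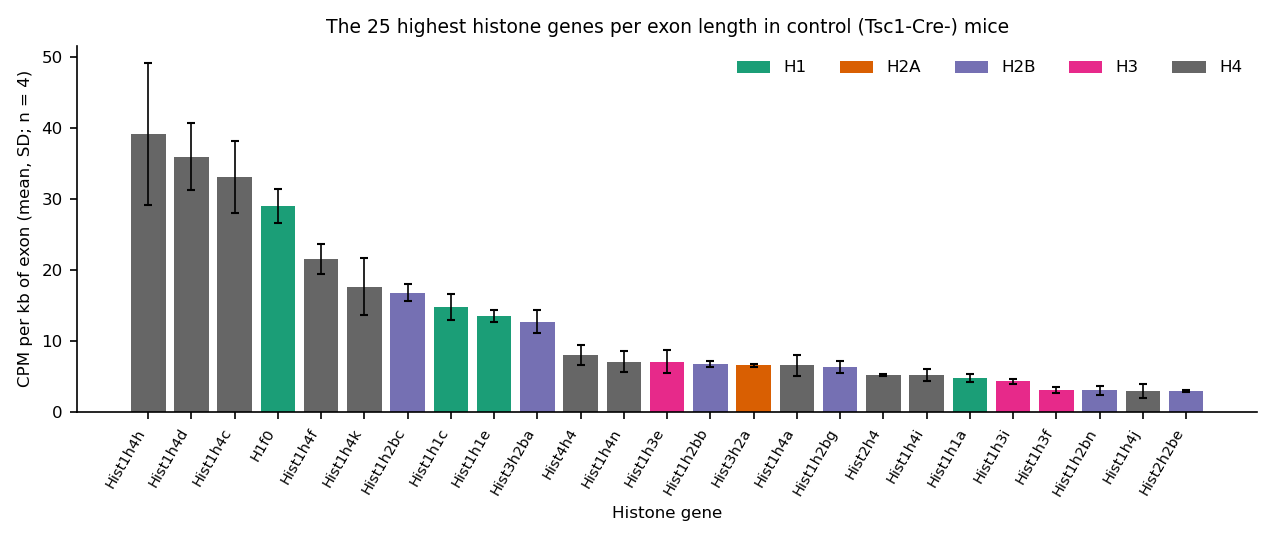
CPM per kb of exon (bars: mean, error bars: SD, n = 4) for the 25 highest histone genes in control mice, coloured by class. The H4 genes Hist1h4h, Hist1h4d and Hist1h4c stand at 39.1, 35.9 and 33.1 CPM per kb, and the highest H2B gene, Hist1h2bc, at 16.8.

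Summed over the 50 genes, the level was 362 ± 31.7 CPM (SD, n = 4) in controls and 359 ± 29.8 CPM in day 4 mice. It was 395 ± 12.7 CPM in day 6, 427 ± 78.4 CPM in day 8 and 423 ± 73.3 CPM in day 13 mice, and 359 ± 37.0 CPM under rapamycin. The control mice ranged from 318 to 393 CPM and overlapped with every group. The day 8 mice did not lie together: mice A and C summed to 484 and 505 CPM, and mice B and D to 370 and 351. On day 13, mouse B summed to 523 CPM, and mice A, C and D to 379, 359 and 434.

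The classes differed in this. The H3 sum was 16.9 ± 2.05 CPM in controls and 19.8 ± 3.03 CPM in day 4, 21.9 ± 2.13 CPM in day 6, 25 ± 10.0 CPM in day 8 and 24.5 ± 7.05 CPM in day 13 mice, and 18.1 ± 3.37 CPM under rapamycin. All mice of day 6 and day 13 lay above the highest control (18.7 CPM). The H2B sum was 57.2 ± 2.98 CPM in controls, 69.6 ± 17.1 on day 8, 74.2 ± 16.2 on day 13 and 49.1 ± 1.72 under rapamycin, where every mouse lay below the lowest control (53.8 CPM). The H4 sum was 145 ± 22.1 CPM in controls and 166 ± 2.73 on day 6, with all day 6 mice just above the highest control (162 CPM). H1 and H2A sums overlapped with controls in every group. In bulk tissue, a change in the number of cells and a change in the RNA per cell cannot be told apart.

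**Figure D2:**
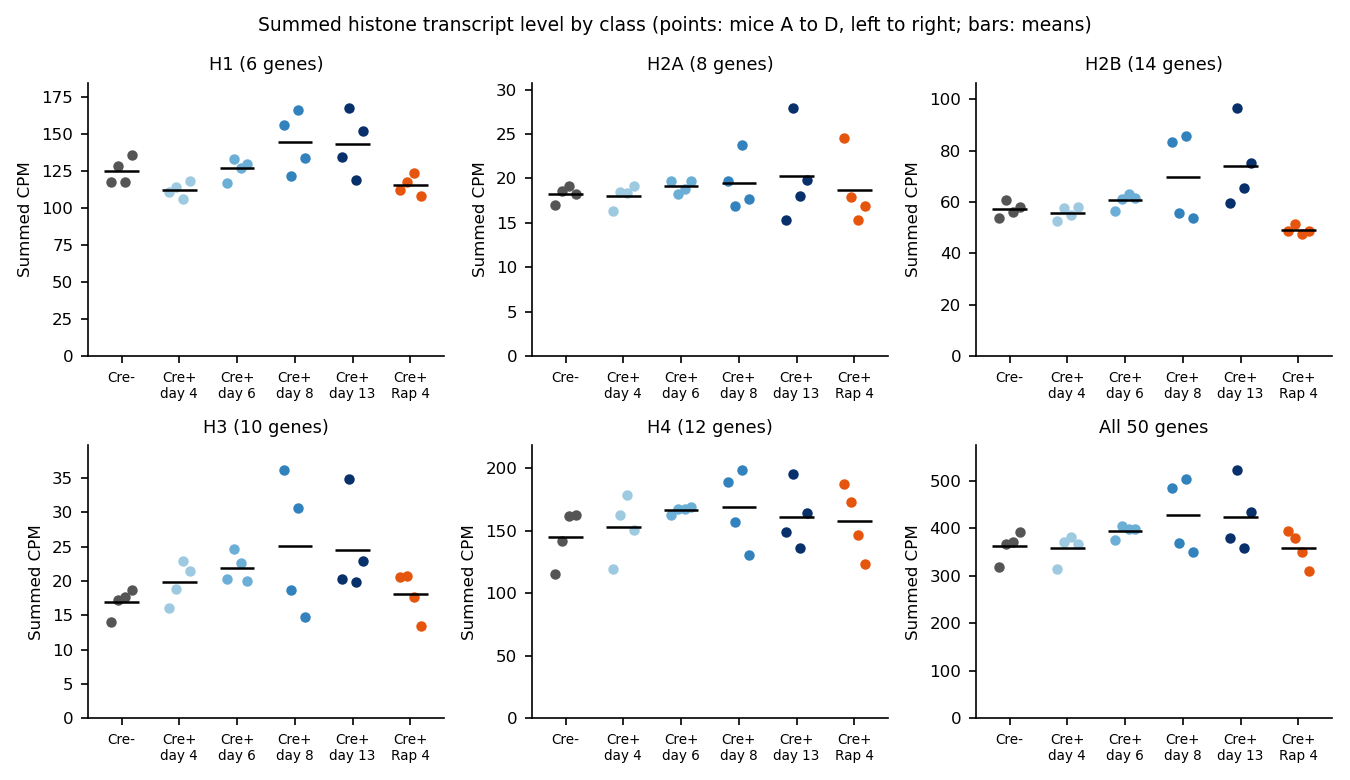
Summed CPM of the histone genes of each class and of all 50 (points: mice A to D from left to right; bars: group means). Day 8 mice A and C and day 13 mouse B are high, with totals of 484, 505 and 523 CPM, and the H2B sums of the rapamycin-treated mice, 47.4 to 51.5 CPM, lie below those of the controls.

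Over all 6 groups, 19 of the 50 genes differed by edgeR's F test (adjusted p under 0.05), which is 38% against 41.9% of 27110 genes. The lowest adjusted p were those of Hist1h2bc (5.16e-06), Hist2h2be (1.16e-05), Hist1h2bn (0.000344), Hist1h1e (0.000718) and Hist1h3a (0.000818). In each comparison of 2 groups, a gene was called by edgeR's quasi-likelihood test on the 8 mice compared where its adjusted p was under 0.05 and its log2 fold change beyond 0.5 in either direction. The comparisons with control share the same 4 control mice, and 17 genes were called in at least one comparison. The share of all genes called in at least one comparison is not given. The comparison of rapamycin-treated with day 13 mice alone called 21.1% of all genes, so the 17 are not read as a trait of the histone genes.

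On day 4 none of 49 histone genes tested was called by edgeR or by DESeq2, with 0.68% of all genes called by edgeR. At an unadjusted p under 0.05 there were 6 (12.2%), beside 18.4% of all genes. The median log2 fold change of the histone genes was 0.08, beside -0.00 for all genes, and 32 of the 49 lay above 0 (65.3%, against 48.8% of all genes). The largest rise, that of the H2A gene Hist1h2ab, was 1.23 (edgeR adjusted p = 0.284), and the largest fall, that of the H2B gene Hist1h2bl, was -0.91 (edgeR adjusted p = 0.293). Only H1f0 passed the adjusted p without passing the fold minimum. It measured 57.0, 59.5, 55.3 and 66.4 CPM in control mice A to D and 48.0, 47.2, 47.1 and 50.02 CPM on day 4. The day 4 mice all lay below the controls (log2 fold change -0.31, SE 0.05, edgeR adjusted p = 0.00857).

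On day 6, 4 of 49 histone genes were called, all higher, where 1.32% of all genes were called and 0.647% called higher. They were the H3 genes Hist1h3a and Hist1h3f, the H4 gene Hist1h4n and the H2A gene Hist1h2ac. Of the 49 genes, 41 lay above 0 (83.7%, against 46.2% of all genes), with a median log2 fold change of 0.18 beside -0.02 for all genes. Hist1h3a (chromosome 13, 23761853 to 23762386, minus strand) measured 0.555, 0.571, 0.759 and 0.406 CPM in control mice A to D and 1.15, 1.14, 1.28 and 1.13 CPM on day 6. The groups did not overlap, and the level was 2.03-fold that of controls (log2 fold change 1.02, SE 0.21, edgeR adjusted p = 0.00694). Hist1h3a shares 38.1% of its windows with other genes. Hist1h2ac measured 0.722, 0.889, 0.68 and 0.813 CPM in controls and 1.41, 1.08, 1.41 and 1.27 CPM on day 6, again without overlap (log2 fold change 0.73, edgeR adjusted p = 0.0190). Hist1h4n and Hist1h3f rose by 0.63 and 0.52 on the log2 scale (edgeR adjusted p = 0.0204 and 0.0277), though Hist1h3f overlapped with controls in one mouse, and Hist1h4n shares 83.1% of its windows with other genes. Under the fold minimum, with an adjusted p under 0.05 by edgeR, were Hist1h4h (0.50), Hist1h1e (0.29) and Hist1h2bc (0.23), and in the other direction Hist2h2be (-0.42) and H1f0 (-0.23). The count changed with the mice included: without day 6 mouse C 1 gene was called, and without day 6 mouse A or B or control mouse A 2 were called. The share of all genes called in these fits is not given, so a general loss of calls with fewer mice cannot be told apart.

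On day 8, 7 of 49 genes were called higher and 1 lower, where 3.99% of all genes were called and 2.15% called higher. The genes called higher were Hist1h3a and Hist1h3h (H3), Hist1h2bh, Hist1h2bj and Hist1h2bn (H2B), Hist1h1a (H1) and Hist1h4n (H4), and the gene called lower was the H2B gene Hist2h2be. The median log2 fold change was 0.47, beside -0.03 for all genes, and 43 of the 49 lay above 0 (87.8%, against 46.3%). Hist1h3a measured 2.42, 1.31, 1.95 and 0.841 CPM in day 8 mice A to D. All lay above the highest control, at a level 2.84-fold that of controls (log2 fold change 1.5, SE 0.32, edgeR adjusted p = 0.0122). Hist1h2bj measured 0.592, 0.654, 0.648 and 0.387 CPM in controls and 1.49, 0.964, 1.85 and 0.914 CPM on day 8, also without overlap (log2 fold change 1.19, SE 0.28, edgeR adjusted p = 0.0174). Hist1h2bh measured 0.407, 0.352, 0.443 and 0.348 CPM in controls and 1.75, 0.585, 1.15 and 0.676 CPM on day 8 (log2 fold change 1.42, SE 0.34, edgeR adjusted p = 0.0215). In each of these genes mice A and C were the highest of the group. Hist1h1a rose by 0.71 and Hist1h3h by 1.28 on the log2 scale (edgeR adjusted p = 0.0396 and 0.0372). Hist1h2bn (1.24) and Hist1h4n (0.71) were called with overlapping groups (edgeR adjusted p = 0.0450 and 0.0468). Of these, Hist1h3h, Hist1h2bn and Hist1h4n share 93.5%, 71.6% and 83.1% of their windows with other genes.

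The largest fold change of day 8 did not pass the test. Hist1h3b measured 0.222, 0.47, 0.19 and 0.271 CPM in controls and 1.79, 0.396, 1.97 and 0.146 CPM in day 8 mice A to D (log2 fold change 1.89, SE 0.68, edgeR adjusted p = 0.0901). Mice A and C lay far above all controls, and mice B and D lay among or below them. The same was seen in the H1 gene Hist1h1d, with 20.3 and 23.3 CPM in mice A and C and 10.3 CPM in both mice B and D, beside 10.4 to 12 CPM in controls (log2 fold change 0.55, edgeR adjusted p = 0.158). Within the number series, 43 of the 50 genes lay above 0 in letters A and B against the same control letters, and 40 in letters C and D. The share of all genes above 0 in each series is not given. Each series holds either mouse A or mouse C, so these counts do not show a rise apart from those mice. With the series as a block in the edgeR fit, 4 of the 8 calls were kept. The count of called genes was 2 without day 8 mouse A, 4 without mouse C, 15 without mouse B and 19 without mouse D. It was 2 without control mouse D and 3 without control mouse A, B or C. The share of all genes called in these fits is not given here. Hist1h3a and Hist2h2be were called in each of these 8 fits.

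On day 13, 10 of 48 genes were called higher and 1 lower, beside 16.5% of all genes called and 8.4% called higher. The share of histone genes called higher was 20.8%. The median log2 fold change was 0.35, beside -0.04 for all genes, and 41 of the 48 lay above 0 (85.4%, against 46.6%). By class, the median was 0.72 for H3, 0.60 for H2B, 0.38 for H1, 0.20 for H4 and 0.13 for H2A genes. The rises were in the H3 genes Hist1h3a, Hist1h3f, Hist1h3h and Hist2h3c2, the H2B genes Hist1h2bc, Hist1h2bh, Hist1h2bj and Hist1h2bn, the H1 gene Hist1h1c and the H4 gene Hist1h4n.

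Among these, Hist1h2bc (chromosome 13, 23684199 to 23692908, plus strand) had the highest level. It measured 17.7, 21, 19 and 19.8 CPM in control mice A to D, 28.9, 48.1, 32.3 and 35.1 CPM on day 13, and 30.9, 19, 36 and 21 CPM on day 8. All day 13 mice lay above all controls, at 1.87-fold (log2 fold change 0.90, SE 0.14, edgeR adjusted p = 0.00229), and on day 8 mice A and C lay well above them (0.47, edgeR adjusted p = 0.0997). Hist1h2bc holds no stem-loop match in its annotated transcripts. Hist1h3a measured 1.12, 1.97, 1.28 and 1.30 CPM on day 13 and lay above all controls (log2 fold change 1.32, SE 0.25, edgeR adjusted p = 0.00568). Hist1h2bh measured 0.911, 1.57, 0.669 and 0.752 CPM, also above all controls (1.36, SE 0.29, edgeR adjusted p = 0.00952). Hist1h1c, a main linker histone, measured 20.7, 25.3, 20.3 and 25.6 CPM in controls and 29.9, 40.2, 25.8 and 36.0 CPM on day 13, with the lowest day 13 mouse just above the highest control (0.53, SE 0.14, edgeR adjusted p = 0.0210). The other rises lay between 0.59 and 1.19 on the log2 scale (edgeR adjusted p from 0.0205 to 0.0458). Mouse B was the highest of the 4 day 13 mice in Hist1h2bc, Hist1h3a, Hist1h2bh and Hist1h1c. Without it 4 genes were called, and 4, 7, 5 and 6 were called without control mouse A, B, C and D, with the share of all genes not given. Hist1h2bc, Hist1h3a, Hist1h2bh and Hist2h2be were called in all 8 of these fits.

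**Figure D3:**
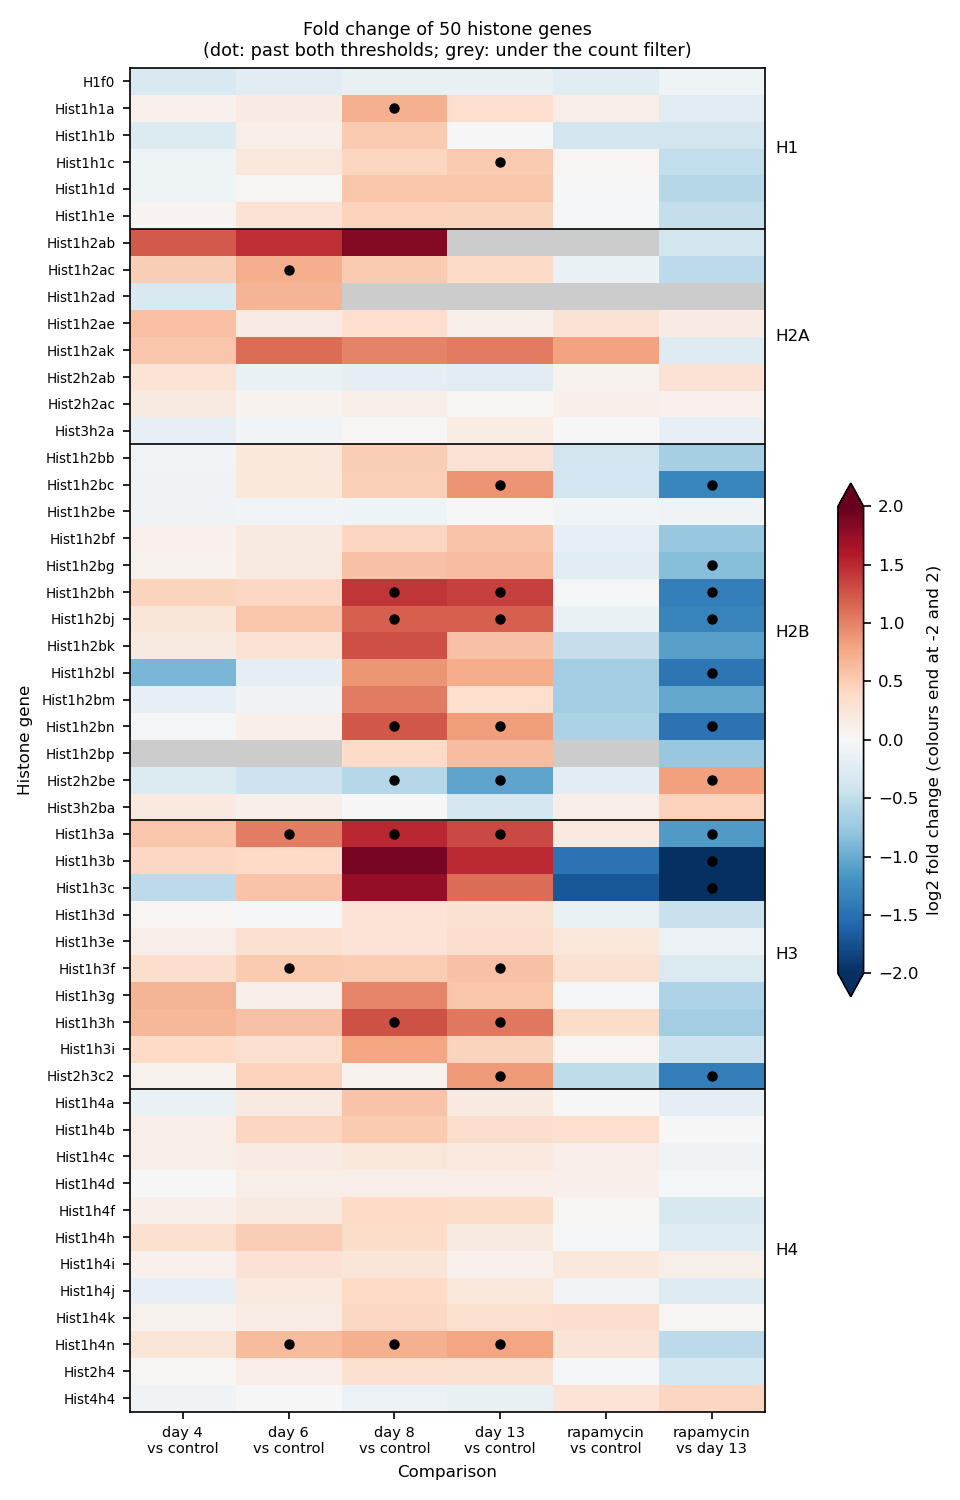
log2 fold change of each of the 50 histone genes (rows, by class) in the 6 comparisons (columns), red for higher and blue for lower, with a dot for calls and grey for genes under the count filter. Higher genes carry 4 dots in the day 6 column, 7 in that of day 8 and 10 in that of day 13, and in the last column, rapamycin against day 13, 10 genes are called lower.

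Hist2h2be was the histone gene called lower against control, on day 8 and day 13. It was not alone in lying below controls: H1f0 did so on day 4 and day 6, and Hist3h2ba measured 5.24 to 6.41 CPM on day 13 beside 6.89 to 9.21 CPM in controls (log2 fold change -0.34, edgeR adjusted p = 0.0752). Hist2h2be, an H2B gene of chromosome 3 (96221119 to 96223738, plus strand), is known to give a polyadenylated transcript, and no stem-loop match was found in its annotated transcripts. It measured 8.07, 7.15, 7.75 and 7.80 CPM in control mice A to D, 6.32, 6.65, 6.88 and 5.67 CPM on day 4, 5.64, 5.81, 5.85 and 5.84 CPM on day 6, and 4.67, 5.44, 4.99 and 5.43 CPM on day 8. On day 13 it measured 2.88, 3.30, 3.82 and 4.83 CPM. Every mouse of these 4 groups lay below every control. Against control, day 4 mice had a log2 fold change of -0.27 (edgeR adjusted p = 0.1) and day 6 mice of -0.42 (edgeR adjusted p = 0.00412). Day 8 mice reached -0.58 (SE 0.10, edgeR adjusted p = 0.00357) and day 13 mice -1.05 (SE 0.17, edgeR adjusted p = 0.00264). In rapamycin-treated mice it measured 7.04, 5.79, 5.96 and 7.45 CPM, which overlapped with controls (-0.22, edgeR adjusted p = 0.286) and lay above all day 13 mice (0.82, SE 0.18, edgeR adjusted p = 0.00890). None of its windows is shared with another gene.

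**Figure D4:**
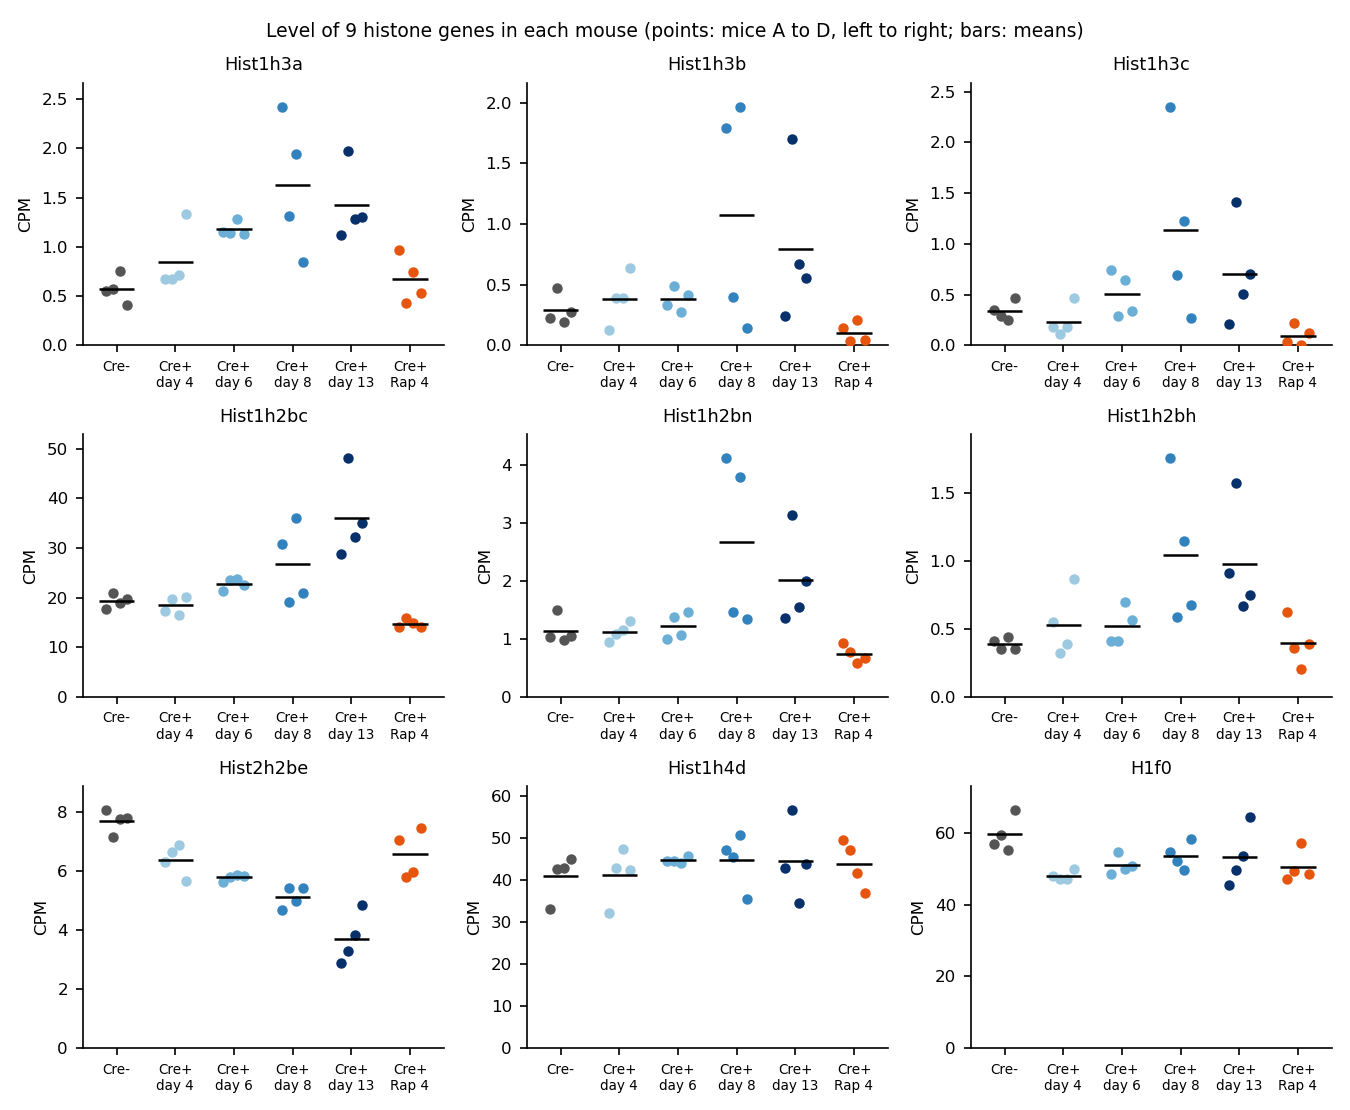
CPM of 9 histone genes in each mouse (points: mice A to D from left to right; bars: group means). Hist2h2be falls from 7.69 CPM in controls to 3.71 CPM on day 13 as group means, Hist1h2bc rises from 19.4 to 36.1 CPM, and Hist1h3b and Hist1h3c are high in day 8 mice A and C and day 13 mouse B.

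In rapamycin-treated mice no histone gene of 47 tested was called against controls by edgeR or by DESeq2, where 1.41% of all genes were called by edgeR. At an unadjusted p under 0.05 there were 7, a count given without the share of all genes. The median log2 fold change was -0.02, beside 0.01 for all genes, and 21 of 47 lay above 0 (44.7%, against 51.4% of all genes). Hist1h2bc passed the adjusted p alone, with 14, 15.9, 14.8 and 14.1 CPM in rapamycin-treated mice, each below the lowest control (log2 fold change -0.38, SE 0.07, edgeR adjusted p = 0.0118). The largest fall was that of the H3 gene Hist1h3c (-1.70, edgeR adjusted p = 0.139) and the largest rise that of the H2A gene Hist1h2ak (0.80, edgeR adjusted p = 0.288).

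Against untreated day 13 mice, rapamycin-treated mice of the same day had 10 of 49 histone genes called lower and 1 higher, beside 21.1% of all genes called and 11.2% called lower. Of the histone genes, 20.4% were called lower. The median log2 fold change was -0.37, beside 0.02 for all genes, and 8 of 49 lay above 0 (16.3%, against 52.0% of all genes). All genes called lower were H2B or H3 genes: 6 of 14 H2B genes (Hist1h2bc, Hist1h2bg, Hist1h2bh, Hist1h2bj, Hist1h2bl and Hist1h2bn) and 4 of 10 H3 genes (Hist1h3a, Hist1h3b, Hist1h3c and Hist2h3c2). The class median was -0.93 for H2B, -0.66 for H3, -0.43 for H1, -0.17 for H2A and -0.12 for H4 genes.

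Hist1h2bc was 0.406-fold its day 13 level (log2 fold change -1.30, SE 0.14, edgeR adjusted p = 0.000429), with no overlap between the 14 to 15.9 CPM of rapamycin-treated mice and the 28.9 to 48.1 CPM of day 13 mice. Hist1h3b measured 0.243, 1.70, 0.669 and 0.551 CPM in day 13 mice A to D and 0.139, 0.0361, 0.207 and 0.0406 CPM under rapamycin. The groups did not overlap (log2 fold change -2.98, SE 0.71, edgeR adjusted p = 0.0112). Hist1h3c measured 0.213, 1.41, 0.502 and 0.701 CPM on day 13 and 0.0347, 0.216, 0 and 0.122 CPM under rapamycin, with one mouse of each group crossing (-2.82, SE 0.76, edgeR adjusted p = 0.0196). Hist1h3b and Hist1h3c had means of only 31.8 and 31.0 counts per mouse over all mice. Their low values under rapamycin therefore rest on few reads, and the size of these fold changes is uncertain. Hist1h2bn, with 1.37, 3.14, 1.56 and 2.00 CPM on day 13 and 0.937, 0.775, 0.58 and 0.67 CPM under rapamycin, fell by 1.48 on the log2 scale (edgeR adjusted p = 0.00478). Hist1h3a fell by 1.13 (edgeR adjusted p = 0.0162), from a range of 1.12 to 1.97 CPM to a range of 0.433 to 0.971 CPM. The other genes called lower fell by 0.85 to 1.44 on the log2 scale, among them Hist1h2bl with overlapping groups (edgeR adjusted p = 0.0436). Of the genes called lower, Hist1h3b, Hist1h2bn, Hist1h2bl and Hist2h3c2 share 58.5%, 71.6%, 72.9% and 62.5% of their windows with other genes. Without day 13 mouse B 7 genes were called, and without rapamycin mouse D 7 were called, with the share of all genes not given.

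H4 genes, which hold the highest levels per length, had 1 gene of 12 called on day 6, on day 8 and on day 13 (8.33% each time), beside the shares of all genes given above for these days. Hist1h4d measured 33.0, 42.6, 42.8 and 45.0 CPM in control mice and 42.7, 56.6, 34.5 and 43.8 CPM on day 13 (log2 fold change 0.13, SE 0.14, edgeR adjusted p = 0.531). Its fold change was between 0.01 and 0.14 on the other days and 0.11 under rapamycin, all within the spread between mice. Hist1h4c measured 23.2, 24, 31.4 and 29.9 CPM in controls and 30.9, 33.2, 27.7 and 31.3 CPM on day 13 (0.19, edgeR adjusted p = 0.221). The called gene was Hist1h4n each time, and no other H4 gene was called in any of the 6 comparisons. Hist2h4 passed the F test over the 6 groups (edgeR adjusted p = 0.0216), with 8.47 ± 0.245 CPM in controls and 10.6 ± 1.67 CPM on day 8 (SD, n = 4).

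The median difference was not the same for genes with different annotated 3′ ends. On day 8 the median log2 fold change was 0.84 over 16 tested genes with a loop and a short tail, 0.94 over the 6 genes with coding sequence alone, 0.33 over the 21 genes with a long tail and 0.16 over the 6 genes with no loop found. On day 13 these medians were 0.57 (15 genes), 0.79, 0.30 and -0.08, and for rapamycin against day 13 they were -0.71, -0.56, -0.26 and -0.14. The lower quartile of the short-tail genes on day 8 was 0.42, and the upper quartile of the long-tail genes was 0.51, so the groups of genes overlapped. Summed over the 17 short-tail genes, the level was 40.2 ± 6.13 CPM in controls and 53.2 ± 0.656 CPM on day 6, where all mice lay above the highest control (45.8 CPM). Hist1h4h is the largest part of this sum, at 18.4 ± 4.71 CPM in controls and 26.0 ± 0.502 CPM on day 6. On day 8 the short-tail sum was 74.1, 46.6, 73.0 and 36.8 CPM in mice A to D. The 6 genes with no loop found summed to 92.7 ± 5.68 CPM in controls, 79.1 ± 2.46 CPM on day 4 and 77.9 ± 4.1 CPM under rapamycin, both below all controls. H1f0, at 55.3 to 66.4 CPM in controls, is the largest part of that sum. The difference between these groups of genes was not tested.

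Genes that act on histone transcripts were also read. Npat, the activator of histone gene transcription, had 48.6 ± 1.09 CPM (SD, n = 4) in controls and stayed within 0.15 of it on the log2 scale in every group (edgeR adjusted p from 0.174 to 0.945). Slbp had 11.3 ± 0.700 CPM in controls and 15.5 ± 2.98 CPM on day 13, with all day 13 mice above all controls (log2 fold change 0.46, edgeR adjusted p = 0.0311, under the fold minimum), and fell by 0.51 in rapamycin-treated against day 13 mice (edgeR adjusted p = 0.0161). Lsm11, a protein of the U7 particle that cuts histone transcripts, rose by 0.56 on day 8 and 0.99 on day 13 (edgeR adjusted p = 0.00285 and 0.000910). Of 18 genes of histone mRNA synthesis and processing, 0 were called by edgeR or DESeq2 on day 4, on day 6 or under rapamycin against control, with 5, 8 and 2 at an unadjusted p under 0.05. On day 8, 2 were higher (Lsm11 and the cap-binding Ncbp1), and on day 13, 3 were higher (these and Cpsf2, of the cleavage complex) and 1 lower (Pou2f1). Between rapamycin-treated and day 13 mice 5 were lower, Slbp, Lsm10, Lsm11, Ncbp1 and Cpsf2, and Pou2f1 was higher.

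Replication-independent histones, which replace others outside S phase, gave another picture of the same protein families. Of 10 such genes, 1 was higher on day 6 (Cenpa, the centromeric H3), 1 was higher and 1 lower on day 8, and 3 were higher and 1 lower on day 13. H2afz, the H2A.Z gene, had 33.0 ± 1.22 CPM in controls, 51.2 ± 7.72 CPM on day 8 and 61.4 ± 4.39 CPM on day 13 (log2 fold change 0.64 and 0.91, edgeR adjusted p = 0.00203 and 0.000148). H3f3b, one of the pair of H3.3 genes, had 106 ± 3.16 CPM in controls and 182 ± 38.2 CPM on day 13 (0.79, edgeR adjusted p = 0.00243), while H3f3a had 44.9 ± 2.02 and 38.3 ± 3.04 CPM (-0.22, edgeR adjusted p = 0.0690). H2afj was also higher on day 13 (0.59), and H2afv was lower on day 8 and day 13 (-0.57 and -0.87, edgeR adjusted p = 0.00104 and 0.00749). On day 4 and under rapamycin against control none was called by edgeR or DESeq2, with 1 at an unadjusted p under 0.05 in each, and against day 13, 4 were lower (H2afz, H3f3b, H2afj and H2afx) and H2afv was higher. H2afx, which marks DNA breaks when phosphorylated, was not called against control (0.38 on day 13, edgeR adjusted p = 0.0542). Of 14 histone chaperones, Asf1b was lower on day 6, Chaf1b of the replication-coupled CAF-1 complex was higher on day 8 and day 13 (1.72 and 1.53), and Ubn1 was higher and Hjurp lower on day 13. Between rapamycin-treated and day 13 mice Hjurp was higher and Ubn1 lower, and on day 4 and under rapamycin against control none was called by edgeR or DESeq2, with 5 at an unadjusted p under 0.05 in each.

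Genes of the cell cycle were read beside the histone genes, since replication-dependent transcripts are known from dividing cells. Of 15 genes of G2 and mitosis, none of 13 tested was called by edgeR or DESeq2 on day 4 and none of 14 on day 6, with 0 and 3 at an unadjusted p under 0.05. On day 8, 8 of 14 were higher, and on day 13, 9 of 15. Top2a, the topoisomerase of dividing cells, had 2.57 ± 0.512 CPM in controls and 8.37 ± 4.71 CPM on day 8 (log2 fold change 1.71, edgeR adjusted p = 0.0115), and Ccnb1, the mitotic cyclin, rose by 1.28 on day 8 and 1.87 on day 13 (edgeR adjusted p = 0.0412 and 0.00454). Mki67, the common marker of proliferation, rose by 0.64 on day 8 (edgeR adjusted p = 0.0153) and differed by 0.17 on day 13 (edgeR adjusted p = 0.479). Under rapamycin 3 of 13 were lower than in controls (Top2a, Cenpf and Bub1b), and 12 of 15 were lower than on day 13.

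The sum of the 15 genes was high in the mice with high histone levels. It was 23.0 to 29.7 CPM in controls, 68.4, 36.0, 63.3 and 36.2 CPM in day 8 mice A to D, 34.5, 65.3, 38.2 and 35.9 CPM in day 13 mice A to D, and 17.2 to 20.4 CPM under rapamycin. The mice with high sums, day 8 A and C and day 13 B, were those with the highest histone totals of their groups. The part of these cells or genes in the histone differences was not tested. Of 28 genes of DNA replication and S phase, edgeR and DESeq2 called 0 on day 4, on day 6 and under rapamycin against control, with 4, 8 and 5 at an unadjusted p under 0.05. EdgeR called 3 higher on day 8 (Cdt1, Rrm2 and Ccna2), 5 higher on day 13 (Cdt1, Rrm2, Cdk2, Pcna and Gins1) and 3 lower (Mcm6, Tyms and Ccne2). Pcna, the replication clamp, was at 14.3 ± 1.06 CPM in controls and 20.7 ± 3.76 CPM on day 13 (0.54, edgeR adjusted p = 0.0131). Between rapamycin-treated and day 13 mice 7 were lower, with Cdt1 at -1.64 and Rrm2 at -1.27, and 2 were higher (Ccne2 and Mcm6). The median of the 28 genes on day 8 was 0.25, below the 0.47 of the histone genes.

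**Figure D5:**
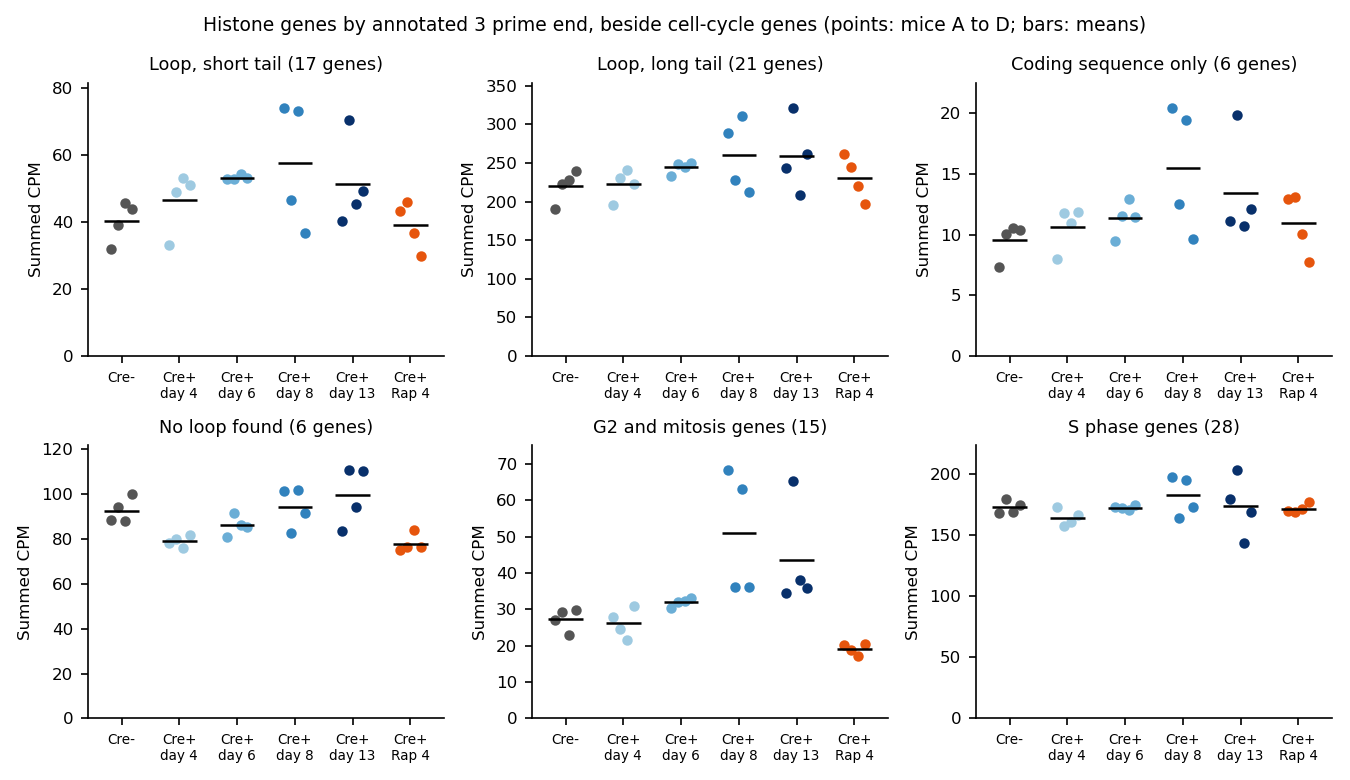
Summed CPM per mouse of the histone genes by annotated 3′ end (4 panels), of 15 genes of G2 and mitosis and of 28 genes of S phase (points: mice A to D; bars: group means). The 4 day 6 mice lie close together in the short-tail panel, between 52.8 and 54.2 CPM. Day 8 mice A and C and day 13 mouse B are high in the mitosis panel and in the histone panels. In the panel of genes with no loop found they are also the highest of their groups, with less distance from the controls. There the highest day 8 mouse reaches 102 CPM and the highest day 13 mouse 110.8 CPM, beside 100 CPM in the highest control.

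Markers of the cell types of the tissue were read as well. Markers of hippocampal excitatory neurons were present in all mice, and choroid plexus markers varied between mice of one group, from 41.6 to 1745 CPM over all mice, with no gene of 8 called against control by edgeR or DESeq2, 0 at an unadjusted p under 0.05 and Prlr lower in rapamycin-treated than in day 13 mice. The summed level of the 5 astrocyte markers was high in the same mice, though the genes went in both directions, with a median log2 fold change of 0.00 on day 8 and on day 13. The sum was 1053 to 1096 CPM in controls, 1339.9 and 1658 CPM in day 8 mice A and C, 827 and 889 CPM in mice B and D, and 2072 CPM in day 13 mouse B, beside 1131 to 1449 CPM in the other day 13 mice. Under rapamycin it was 839.8 to 887 CPM. Of 5 astrocyte genes, Gja1 was lower on day 8 and day 13 and Gfap higher on day 13 (1.91, edgeR adjusted p = 0.00466). Aqp4 and Gfap were lower under rapamycin than in controls, and 3 were lower and 1 higher than on day 13. Of 6 oligodendrocyte precursor markers, Gpr17 was lower on day 8, and Gpr17 and Sox10 were lower under rapamycin than in controls, Sox10 also than on day 13. Of 6 microglia markers, C1qa was higher on day 13, Aif1 and Cx3cr1 were lower under rapamycin than in controls, and Aif1 and C1qa were lower than on day 13. Of 7 immature neuron markers, Sox11 was higher on day 13 (1.74), and Sox11 and Sox4 were lower under rapamycin than on day 13. Of 5 endothelial markers, Cldn5 was lower under rapamycin than in controls, and Cldn5, Pecam1 and Cdh5 were lower than on day 13. Of 8 excitatory neuron markers, Slc17a7 was higher and Calb1 lower on day 13, and under rapamycin against day 13 Slc17a7 and Wfs1 were lower and Calb1 higher. On day 4 and day 6 none of these 45 marker genes was called by edgeR or DESeq2, with 22 and 24 at an unadjusted p under 0.05. Their part in the histone differences was not tested.

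Other short RNAs without poly(A) were read as a comparison for the capture of such transcripts. Of 13 listed, 8 or 9 passed the filter, and Rny1 and Rny3 were higher on day 4, Rny1 on day 6, and Rny3 and Rn7s2 lower in rapamycin-treated than in day 13 mice. None was called by edgeR or DESeq2 on day 8, on day 13 or under rapamycin against control, with 3, 3 and 0 at an unadjusted p under 0.05. Their summed level, nearly all of it Rn7sk, was 10246 to 11354 CPM in controls and lay below this range in all mice of day 6 (9493 to 9911 CPM), day 8 (8789 to 9178 CPM) and day 13 (7504 to 9381 CPM). The median log2 fold change of the tested short RNAs was 0.08, 0.04 and 0.13 on these days, so the sum and the median differed in sign.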

How the data were processed

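Hippocampal RNA of 24 mice was measured by RNA-Seq, 1 library per mouse, and mice were grouped by their titles in the public record. After rRNA depletion of total RNA, strand-specific libraries were prepared by the authors and sequenced as paired ends of 76 bases. The authors trimmed reads with CutAdapt 1.16.5, aligned them with STAR 2.7.2b to GRCm38 (GENCODE M24) and counted them per gene with featureCounts 1.6.4. The deposited values are these raw counts, whole numbers without normalization. How strand and reads with several matches were handled is not given in the sources used here.

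The 50 histone genes were found by symbol and a mean count of at least 10 per mouse. Symbols, coordinates and transcripts came from GENCODE M21, an earlier release on the same build, which held 55144 of the 55385 genes, and promoters from RefSeq (GRCm38.p6). Groups of 4 mice were compared by edgeR 4.0.16 in R 4.3.3 (quasi-likelihood test, filterByExpr, TMM, Benjamini-Hochberg adjustment over all genes tested) on the 8 mice of each comparison, and an F test covered all 6 groups. The p-values measure the spread between mice. On day 4, 18.4% of all genes had an unadjusted p under 0.05. For the other comparisons this share is not given. Counts at an unadjusted p therefore do not show by themselves that a list changed. CPM used TMM library sizes, and levels between genes are given per kb of exon.

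Named genes were those called in any comparison, the 12 highest per kb, the largest rise and fall of each comparison, the genes next to the count minimum and, from the other gene lists, called genes up to 8 per list and a few preset genes. Hist1h1d, Hist2h4, Hist4h4 and Npat fall outside this rule and were chosen after their values were seen. Lists covered replication-independent histones, histone mRNA synthesis and processing, chaperones, S phase, G2 and mitosis, other short RNAs and 7 cell types. The members and lists were chosen with earlier results of these data known. Alternatives were DESeq2 1.42.0, its size factors, no count filter, all 24 mice in one fit, no fold minimum, the replicate letter or the number series as a block, a GC correction, each mouse left out in turn, and Xist expression added as a covariate. The fits were also tested on simulated data.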

Additional observations from a re-analysis of the deposited data

Results flagged for a closer look

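Each histone gene called in a comparison was checked for a mouse that stood apart from the other 3 of its group, in 138 groups of 4 mice, and chance alone would mark about 1 in 20 of them. There were 3 such values, all in single genes and none in a sum. Hist1h2bn measured 1.49 CPM in control mouse B, above the 0.98 to 1.04 CPM of the other controls. Hist1h3a measured 1.33 CPM in day 4 mouse D, where the others had 0.674 to 0.709 CPM, and 1.28 CPM in day 6 mouse C, where the others had 1.13 to 1.15 CPM.

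The difference between the 2 groups of Tsc1-Cre+ mice taken on day 13, with and without rapamycin, was tested itself by edgeR, and 11 histone genes passed, 10 lower and 1 higher under rapamycin.

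Below the count minimum, 2 histone genes with 0 counts in all controls had more than 3 counts in another group. Hist1h2af, an H2A gene that shares 86.4% of its windows with other genes, had 30 counts summed over the 4 day 13 mice, 5 on day 4, 11 on day 6, 11 on day 8 and 5 under rapamycin. Hist1h4m, which shares 89.0% of its windows with other genes, had 4 counts summed over the 4 day 4 mice and 4 over the day 8 mice, 2 on day 6, and 0 on day 13 and under rapamycin. Hist1h2aa and the pseudogene Hist1h2aj, also at 0 in controls, had at most 3 counts in any group.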

How the results depend on the processing

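The 34 calls of a histone gene in a comparison were recomputed under 550 combinations with an alternative. None reversed, 425 stayed past the thresholds and 125 did not, of which 92 had 1 mouse left out. The 425 include 34 with no fold minimum, which only loosens the threshold of the same fit and so could not lose a call. With no fold minimum, the count of called genes was 1 on day 4 (H1f0), 9 on day 6 and 1 for rapamycin against control (Hist1h2bc), in place of 0, 4 and 0. When edgeR was fitted to all 24 mice together, 0 genes were called on day 6, with 10 at an unadjusted p under 0.05, while DESeq2 on the 8 mice called 3. On day 8, in place of 8, DESeq2 called 15 genes, the 8 included, the GC correction left 5 and the number series as a block left 4. On day 13, in place of 11, both the GC correction and the Xist covariate left 7. The causes were not tested. With 1 mouse left out, the counts were 0 to 0 on day 4, 1 to 5 on day 6, 2 to 19 on day 8, 4 to 15 on day 13, 0 to 0 for rapamycin against control, 7 to 14 for rapamycin against day 13 and 14 to 24 among the 6 groups. The share of all genes called in each alternative fit is not given here. The counts therefore describe how far the calls depend on the fit, not a trait of the histone genes.

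The replicate letters named different animals. The deviations of mice with the same letter correlated between -0.20 and 0.16, and in no comparison did all 4 pairs exceed 0.1 (3 of 4 on day 13), so the letters were not taken to pair the mice. Control and day 8 mice of the same letter also share a number series. With the replicate letter as a block, 4 genes were called on day 8, while day 6, day 13, rapamycin against day 13 and the F test gave 4, 10, 10 and 18. Of the 34 calls, 12 were kept under all alternatives run, among them those of Hist2h2be and Hist1h2bc in each comparison where they were called and those of Hist1h3a on day 8 and day 13. Genes of few counts, such as Hist1h3b and Hist1h3c, cannot show small differences at this depth.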
